A study of Homo sapiens with 4 samples.

Results

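Sprouty and SPRED genes encode intracellular inhibitors of receptor tyrosine kinase signalling. The family was taken as the 7 genes of the deposited table with the symbols SPRY1, SPRY2, SPRY3, SPRY4, SPRED1, SPRED2 and SPRED3, out of 38972 genes listed. The cells were HEK293T, an established line of human embryonic kidney origin. By their labels, 2 libraries (the Flag-labelled pair) overexpressed Flag, an epitope tag used as the control, and 2 (the RNase H1-labelled pair) overexpressed RNase H1, a nuclease that cuts RNA paired with DNA. The vector, the form of RNase H1, its dose and the time after its introduction were not stated in the labels. Nor do the labels tie replicates to separate cultures, so p-values measure only the spread between these libraries, which may be technical.

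Growth factor receptors such as those for FGF and EGF activate RAS, which drives the kinase chain from RAF through MEK to ERK. Sprouty proteins carry a cysteine-rich domain that places them at membranes, where they hold this chain back, and SPRED proteins, which share that domain and add an EVH1 domain, bring the RAS inhibitor neurofibromin to the membrane. ERK activity raises the transcription of several of these genes, so they act as a feedback loop. In the developing kidney Sprouty1 is known for restraining RET signalling during branching of the ureteric bud.

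The transcript of RNASEH1 itself, the check of the labels, was listed at 32.09 and 32.8 TPM in the Flag-labelled pair and at 29.93 and 29.67 TPM in the RNase H1-labelled pair. TPM is a gene's share of the transcripts in its library corrected for transcript length. The log2 fold change of RNASEH1 was -0.12 ± 0.06 (standard error, limma adjusted p = 0.260), so the listed level does not bear out the RNase H1 label, and groups are named by their labels throughout. The correlation of log2 levels between libraries of a group was 0.990 (Flag) and 0.989 (RNase H1), and 0.981 to 0.984 between groups. Of 10 genes fixed as HEK293T markers, 9 reached a mean of 1 TPM and PAX8, at 0.05 to 0.47 TPM, did not. KRT8, KRT18 and VIM rose and NEFL and NEFM fell, and the 10 markers summed to 1142 to 1161 TPM in the Flag-labelled pair and to 1242 to 1263 in the RNase H1-labelled pair. Most of that sum was VIM, at 867 and 888 TPM and then at 979 and 965 TPM, so it says little about the other markers. The 12 markers of other cell types summed to 29.1 to 29.9 and to 24.1 to 28.6 TPM, with PTPRC of leukocytes at 0 in 3 libraries and at 0.02 in the fourth, and with COL1A1 and MYH3 among those listed above 1 TPM in every library. The part of these markers in the results below was not tested.

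Of the 7 genes, SPRY2, SPRY4, SPRED1 and SPRED2 were higher in the RNase H1-labelled pair, SPRY1 and SPRED3 did not pass the test, and SPRY3 was too low to be tested. The comparison used limma, a linear model fitted over all genes, on log2(TPM + 1) for the 15651 genes that averaged 1 TPM or more, and a gene was called where its adjusted p lay under 0.05. Over all of those genes 6.30% were called higher and 5.54% lower. Among the 6 tested members, of a family chosen with earlier results of these data known, 4 were called higher and 0 lower. SPRY4 reached the minimum only through the RNase H1-labelled pair, and without it 3 of 5 were called higher. The median log2 fold change was 0.73 over the 6 tested members, 0.59 over the 5 without SPRY4, and 0.00 over all tested genes (0.0035). Groups did not overlap, with RNase H1 higher, in 5 of the 6 tested members and in 31.3% of all tested genes. SPRY4 is among the 5, and had to be high in the RNase H1-labelled pair to be tested. The remaining tested member, SPRY1, had groups that did not overlap in the other direction, as did 29.4% of all tested genes.

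**Figure D1:**
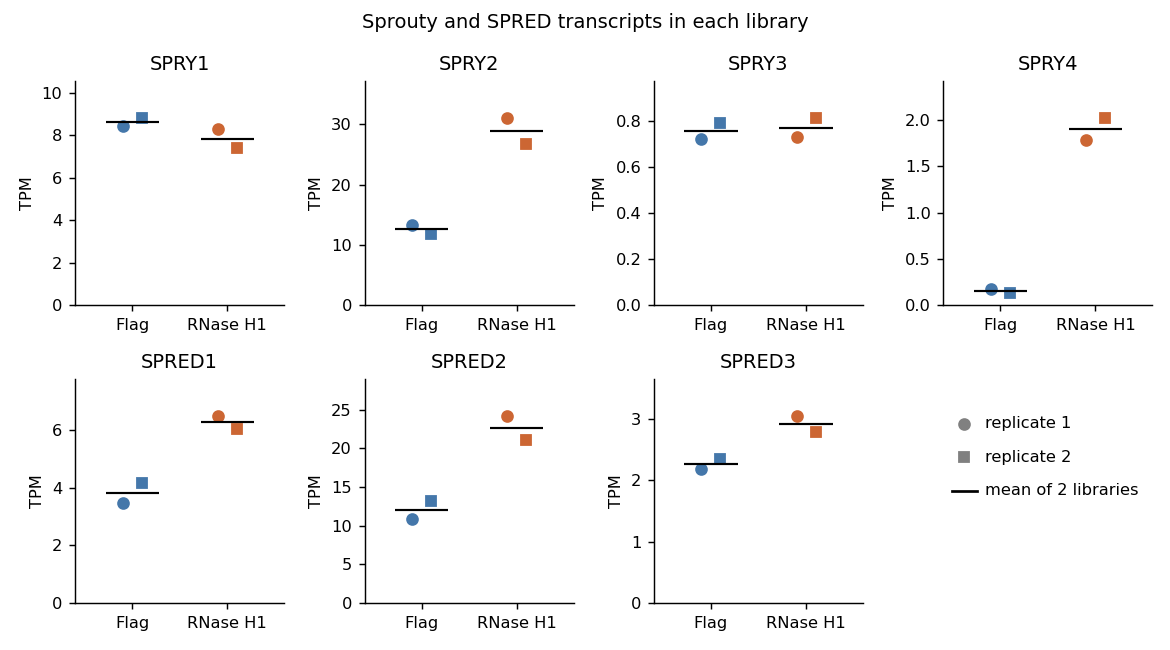
TPM of each Sprouty and SPRED gene in the 4 libraries, with circles for replicate 1, squares for replicate 2 and a line at the mean of each group; each panel has its own vertical axis from 0. SPRY2, SPRY4, SPRED1 and SPRED2 stand higher in both RNase H1-labelled libraries, while SPRY3 lies between 0.72 and 0.81 TPM in all 4.

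SPRY2, the most abundant Sprouty transcript here and an inhibitor that binds the ubiquitin ligase CBL and the adaptor GRB2, was listed at 13.32 and 11.83 TPM in the Flag-labelled pair and at 31 and 26.8 TPM in the RNase H1-labelled pair. Both RNase H1-labelled libraries lay above both Flag-labelled ones by more than the spread within either group. The mean rose from 12.6 ± 1.05 to 28.9 ± 2.97 TPM (SD, n = 2), a log2 fold change of 1.14 ± 0.10 (standard error) with a 95% interval from 0.88 to 1.39 (limma adjusted p = 0.00768). In size of increase SPRY2 ranked 94 among the 15651 tested genes.

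SPRY4, another Sprouty inhibitor of ERK signalling, was listed at 0.18 and 0.13 TPM in the Flag-labelled pair and at 1.79 and 2.02 TPM in the RNase H1-labelled pair. It was close to 0 in the first pair and low in the second, with no overlap. The ratio of the mean TPM values was 12.3, while the log2 fold change with 1 TPM added was 1.33 ± 0.22 (95% interval 0.80 to 1.86, limma adjusted p = 0.0226), because the added value outweighs the Flag level. With 0.1 TPM added it was 2.98 (adjusted p = 0.0308), and with 5 TPM added 0.42 (adjusted p = 0.0244). TPM keeps no sequencing depth, so no counting interval can be given for levels this low.

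SPRY4-AS1, a noncoding transcript on the opposite strand, had a listed level of 0 in the Flag-labelled pair and of 0.35 and 0.43 TPM in the RNase H1-labelled pair. It was below the testing minimum and has no test. The 2 genes overlap over 1163 bases (chromosome 5, 142325293 to 142326455, GENCODE release 29 on GRCh38). Whether reads were counted by strand is not stated, so within that overlap reads of the pair cannot be told apart.

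SPRY1, the Sprouty gene best known from kidney development, was listed at 8.42 and 8.8 TPM in the Flag-labelled pair and at 8.3 and 7.39 TPM in the RNase H1-labelled pair. The groups were separated by only 0.12 TPM, less than the gap between replicates. Its log2 fold change of -0.12 ± 0.11 did not pass (limma adjusted p = 0.497), and the 95% interval from -0.39 to 0.15 leaves out a rise of the size seen for SPRY2. SPRY3 was listed at 0.72, 0.79, 0.73 and 0.81 TPM, in the order of the Flag-labelled and then the RNase H1-labelled pair, and its groups overlapped. SPRY3 lies in a pseudoautosomal region and is annotated at the same length on X (155767812 to 155782459) and on Y (56954332 to 56968979). Its reads can match both annotated positions, and how such reads were counted is not stated, so its level is uncertain.

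SPRED2, which recruits neurofibromin to RAS, was listed at 10.86 and 13.26 TPM in the Flag-labelled pair and at 24.19 and 21.12 TPM in the RNase H1-labelled pair. All values of the second pair were above those of the first. The mean rose from 12.1 ± 1.70 to 22.7 ± 2.17 TPM (SD, n = 2), a log2 fold change of 0.86 ± 0.12 with a 95% interval from 0.56 to 1.16 (limma adjusted p = 0.0165). SPRED1, the gene mutated in Legius syndrome, was listed at 3.49 and 4.17 TPM in the Flag-labelled pair and at 6.5 and 6.06 TPM in the RNase H1-labelled pair. These groups did not overlap either, at a lower level. The mean rose from 3.83 ± 0.481 to 6.28 ± 0.311 TPM, a log2 fold change of 0.59 ± 0.14 (95% interval 0.26 to 0.93, limma adjusted p = 0.0448). SPRED1 passed only narrowly and missed the threshold after correction for GC content, at a log2 fold change of 0.53 (adjusted p = 0.0620), an alternative added after the data were seen. SPRED3, the least abundant SPRED gene here, was listed at 2.18 and 2.35 TPM and at 3.05 and 2.79 TPM. Its groups did not overlap, but the log2 fold change of 0.26 ± 0.16 did not pass (95% interval -0.12 to 0.65, limma adjusted p = 0.309).

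**Figure D2:**
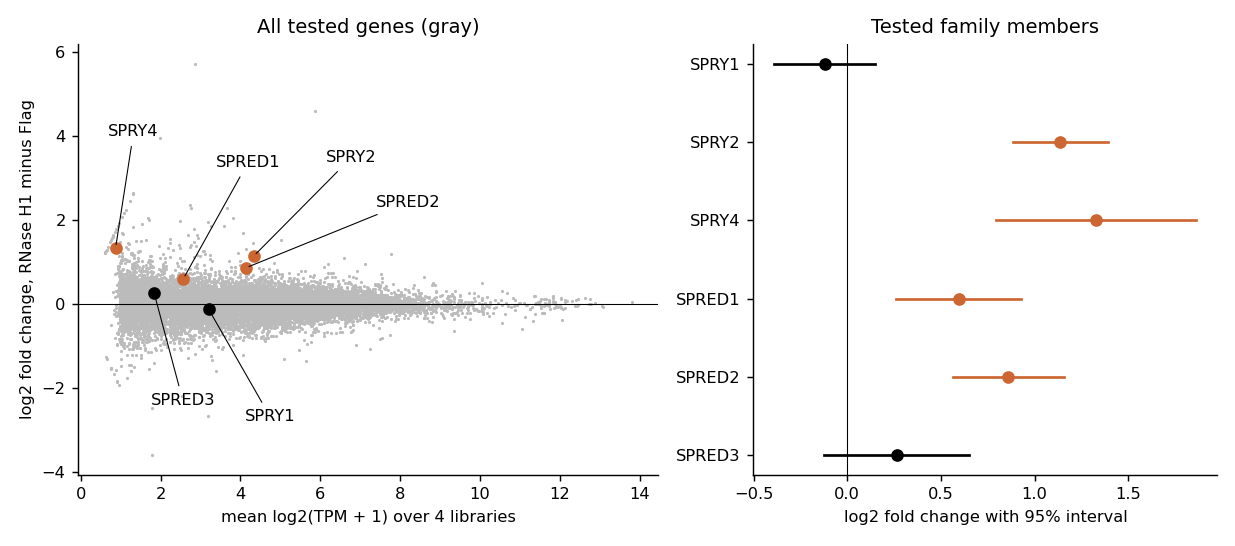
Left, log2 fold change (RNase H1 minus Flag, on log2(TPM + 1)) against the mean level for all 15651 tested genes in gray, with the 6 tested family members marked, orange for those called higher and black for those not called. Right, the same fold changes with 95% intervals; the intervals of SPRY1 and SPRED3 include 0 and those of the other 4 do not.

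Every one of these calls needed all 4 libraries. With any single library left out, a fit that assumes the lone remaining library of its group to vary like the other group, the adjusted p of SPRY2 was 0.0783 to 0.121, of SPRY4 0.101 to 0.126, of SPRED1 0.137 to 0.200 and of SPRED2 0.0969 to 0.140. The log2 fold changes stayed positive in those fits, at 1.04 to 1.24 for SPRY2, 1.27 to 1.39 for SPRY4, 0.49 to 0.70 for SPRED1 and 0.73 to 0.99 for SPRED2. With no minimum level the adjusted p was 0.0796 for SPRY2 and SPRY4, 0.0908 for SPRED2 and 0.144 for SPRED1. When variances followed no intensity trend it was 0.0762 for SPRY2, 0.0667 for SPRY4, 0.0793 for SPRED2 and 0.0853 for SPRED1. In each of these 6 fits SPRY2, SPRY4, SPRED1 and SPRED2 had an unadjusted p under 0.05.

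**Figure D3:**
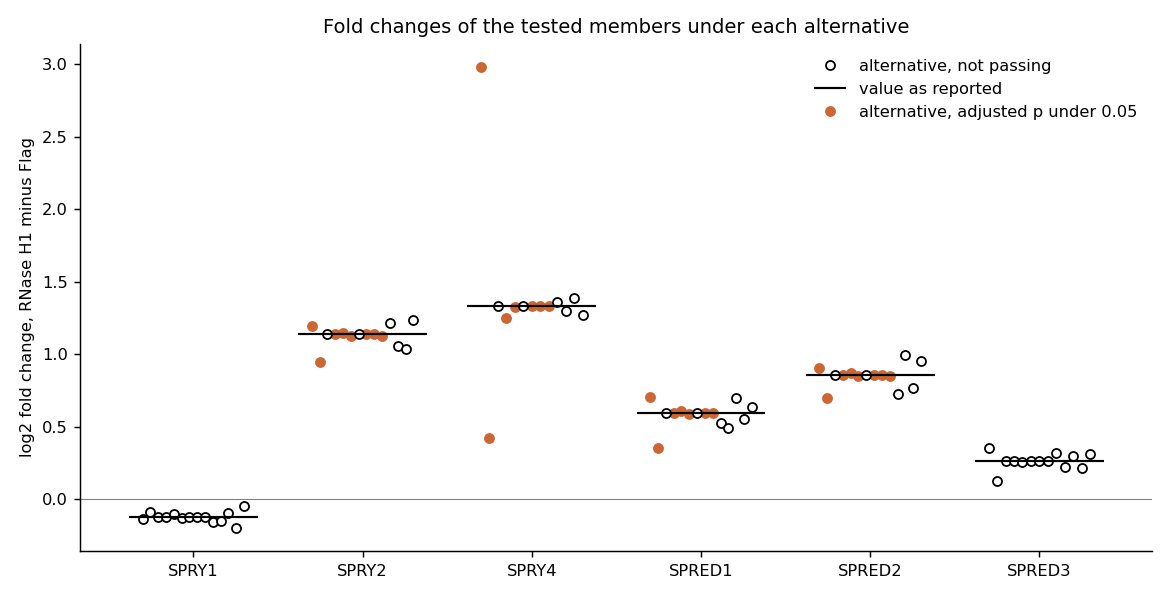
Log2 fold change (RNase H1 minus Flag) of each tested member under every alternative, filled where the adjusted p was under 0.05 and open where it was not, with a line at the value as reported. SPRY2, SPRY4, SPRED1 and SPRED2 lie above 0 in all, SPRY1 lies between -0.20 and -0.05, and the wide range of SPRY4, from 0.42 to 2.98, comes from the value added before taking logs.

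TPM is corrected for transcript length, so levels of the 7 genes can be set against each other. In the Flag-labelled pair the order of the means was SPRY2 and SPRED2 (12.6 and 12.1 TPM, with overlapping libraries), SPRY1 (8.61), SPRED1 (3.83), SPRED3 (2.27), SPRY3 (0.755) and SPRY4 (0.155). In the RNase H1-labelled pair the order was SPRY2 (28.9), SPRED2 (22.7), SPRY1 (7.85), SPRED1 (6.28), SPRED3 (2.92), SPRY4 (1.91) and SPRY3 (0.770), with no overlap between neighbours. Only SPRY3 and SPRY4 changed places.

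The Sprouty transcripts together summed to 22.6 and 21.6 TPM in the Flag-labelled pair and to 41.8 and 37.0 TPM in the RNase H1-labelled pair. SPRY1 made up 37.2% and 40.8% of that sum in the first pair and 19.85% and 19.96% in the second. SPRY2 made up 58.8% and 54.9%, and then 74.1% and 72.4%. The SPRY2 level was accordingly 1.58 and 1.34 times that of SPRY1 in the Flag-labelled pair and 3.74 and 3.63 times in the RNase H1-labelled pair.

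The SPRED transcripts summed to 16.5 and 19.8 TPM in the Flag-labelled pair and to 33.7 and 30.0 TPM in the RNase H1-labelled pair. SPRED2 made up 65.7% and 67.0% in the Flag-labelled pair and 71.7% and 70.5% in the RNase H1-labelled pair, and SPRED1 21.1% in both of the first pair and 19.3% and 20.2% in the second. No test was run on these sums and shares. In bulk RNA, more cells with a transcript and more transcript in each cell cannot be told apart.

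**Figure D4:**
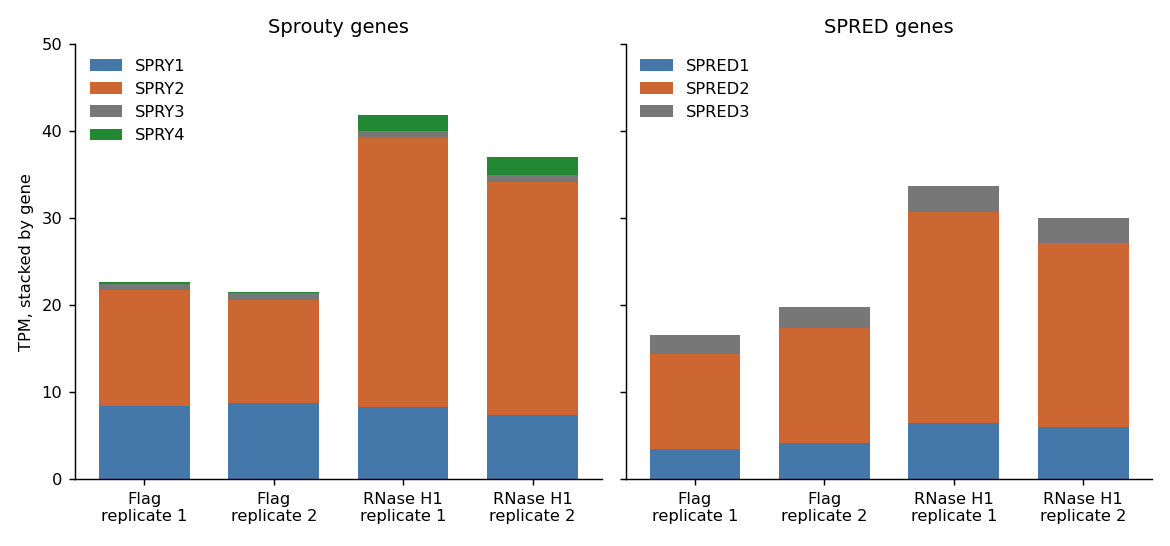
TPM of the Sprouty genes (left) and the SPRED genes (right) stacked by gene in each library. The SPRY1 segment is of like height in all 4 libraries, at 7.39 to 8.8 TPM, while the SPRY2 and SPRED2 segments are taller in the RNase H1-labelled pair.

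The members lie on different chromosomes, so each has its own neighbourhood. In GENCODE release 29 on GRCh38, SPRY2 spans chromosome 13, 80335976 to 80340951, on the minus strand, and SPRY1 chromosome 4, 123396795 to 123403760, on the plus strand. SPRY4 spans chromosome 5, 142310427 to 142326455, on the minus strand. SPRED2 spans chromosome 2, 65310851 to 65432637, on the minus strand, SPRED1 chromosome 15, 38252326 to 38357249, on the plus strand, and SPRED3 chromosome 19, 38388421 to 38399587, on the plus strand. SPRED1 and SPRED2 are long, at 104924 and 121787 bases, and SPRY2 and SPRY1 short, at 4976 and 6966 bases, so genes of either length were among those called. GC content of the longest transcript was 48.3% for SPRY2, 50.4% for SPRY4, 38.9% for SPRED1 and 48.7% for SPRED2, against 44.8% for SPRY1 and 58.8% for SPRED3.

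The nearest listed protein-coding gene on each side of the 7 members gave 14 neighbours, of which 11 were tested, 0 were called higher and 1 was called lower, a count near the 11.8% called in either direction over all tested genes. That neighbour was FAM98C, which begins 3548 bases beyond the end of SPRED3. FAM98C was listed at 14.3 and 11.88 TPM in the Flag-labelled pair and at 6.84 and 6.61 TPM in the RNase H1-labelled pair, a log2 fold change of -0.86 ± 0.12 (limma adjusted p = 0.0163). Neighbours of the members that rose lay farther off. NDFIP2, 779.9 kb from SPRY2, had a log2 fold change of 0.24 ± 0.07 (limma adjusted p = 0.0736), and NDFIP1, 156 kb from SPRY4, 0.12 ± 0.06 (0.225). FAM98B, 96.9 kb from SPRED1, had 0.00 ± 0.06 (0.997, log2 0.0005), and ACTR2, 39.6 kb from SPRED2, 0.02 ± 0.04 (0.823). None of these passed limma's threshold.

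The upstream sequences of SPRY2 and SPRED2, the most abundant members that rose, are shown beside that of SPRY1, which did not pass. Each is from RefSeq on GRCh38.p14 and lies within the 250 bases before the most upstream start in that table, 5′ to 3′ on the gene's strand, at chr13:80341127-80341376 for SPRY2 (minus), chr2:65432638-65432849 for SPRED2 (minus) and chr4:123396545-123396794 for SPRY1 (plus). The SPRED2 run stops after 212 bases, where an annotated exon begins, and the others run for 250 bases up to the start. Capitals mark motif matches.
SPRY2: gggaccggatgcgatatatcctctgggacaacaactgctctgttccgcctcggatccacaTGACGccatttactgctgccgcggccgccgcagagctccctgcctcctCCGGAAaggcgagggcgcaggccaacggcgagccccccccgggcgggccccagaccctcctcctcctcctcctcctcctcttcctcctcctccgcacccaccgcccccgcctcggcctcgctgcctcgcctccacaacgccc
SPRED2: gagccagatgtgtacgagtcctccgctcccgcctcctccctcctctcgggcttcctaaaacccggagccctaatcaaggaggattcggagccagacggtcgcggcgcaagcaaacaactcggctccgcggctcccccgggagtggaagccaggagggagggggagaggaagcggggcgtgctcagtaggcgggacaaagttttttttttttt
SPRY1: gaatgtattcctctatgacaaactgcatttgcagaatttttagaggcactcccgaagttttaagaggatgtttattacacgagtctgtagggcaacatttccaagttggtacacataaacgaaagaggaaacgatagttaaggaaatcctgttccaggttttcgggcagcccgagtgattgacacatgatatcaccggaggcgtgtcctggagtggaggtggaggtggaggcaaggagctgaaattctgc

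The 250 bases before the most upstream start were searched on both strands for TGACGTCA (the cAMP response element), TGACG (the shorter core of that element, which the full element contains), TGANTCA (AP-1), CCGGAA (a core bound by ETS factors) and TATAAA (the TATA box). The SPRY2 window held TGACG starting 190 bases and CCGGAA starting 142 bases before the start. TGACG was also in the windows of SPRY4, 68 bases before the start, and of SPRY3. Of 27305 promoter windows of the same length 21.6% held TGACG and 14.8% CCGGAA, so these matches are common. No other motif was matched in the windows of the 7 genes. TGACGTCA was in 1.75%, TGANTCA in 6.57% and TATAAA in 11.2% of all windows. GC content was 70.4% in the SPRY2 window, 58.8% in that of SPRED2 and 45.6% in that of SPRY1. A match is a run of letters and not a shown binding site. In GENCODE release 29 the SPRED1 and SPRED3 windows lie wholly within exons of their own gene. The SPRY3 window (chrX:155612336-155612585) lies wholly within exons of TMLHE, far before the SPRY3 span given above. The SPRY4 window (chr5:142324248-142324497) lies inside the SPRY4 span given above, with 170 of its 250 bases in SPRY4 exons. These windows are not printed, and matches or misses in them do not describe sequence upstream of the annotated gene.

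Upstream of the family in the pathway stand receptors and ligands. Of 23 receptors 16 were tested, with 1 higher, 1 lower and 14 not called, near the share of all tested genes called in either direction (11.8%), and a median log2 fold change of -0.09. FGFR4, an FGF receptor, fell from 23.73 and 23.99 TPM to 13.93 and 15.09 TPM, a log2 fold change of -0.68 ± 0.08 (limma adjusted p = 0.0116). EPHA2, an ephrin receptor, rose from 12.47 and 12.25 TPM to 18.99 and 17.18 TPM, a log2 fold change of 0.51 ± 0.09 (limma adjusted p = 0.0254). FGFR1, the most abundant FGF receptor here, stood at 48.7 ± 0.785 and 45.2 ± 5.37 TPM (log2 -0.11 ± 0.09, adjusted p = 0.454). KIT had a log2 fold change of -0.32 ± 0.09 (adjusted p = 0.0736) and EGFR one of -0.07 ± 0.14 (adjusted p = 0.789). Of 17 FGF ligands only 6 reached the minimum, FGF18 (means of 0.82 and 1.2 TPM) only through the RNase H1-labelled pair. By limma 0 of these 6 were called higher or lower at the adjusted threshold. An unadjusted p under 0.05 was reached by 0 of the 6, against 31.3% of all tested genes. With so few FGF genes tested, these counts do not show that the ligands were unchanged. FGF2, the most abundant, was listed at 6.23 and 6.85 and at 6.89 and 7.4 TPM.

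In the kinase cascade that Sprouty and SPRED proteins restrain, from GRB2 and SOS1 to ERK and its substrates, 24 of 24 genes were tested. The test called 2 higher and 1 lower and left 21 without a call, near the share over all tested genes (11.8% in either direction), and the median log2 fold change was 0.10. NRAS rose from 98.2 ± 2.99 to 115 ± 2.69 TPM (log2 0.23 ± 0.05, limma adjusted p = 0.0403) and RIT1, a RAS-like GTPase, from 33.3 ± 1.22 to 41.3 ± 1.65 TPM (0.30 ± 0.07, adjusted p = 0.0414). Both missed the threshold after GC correction, at 0.16 for NRAS (adjusted p = 0.0774) and 0.24 for RIT1 (0.0622), and NRAS also under quantile normalization (0.0526). PEBP1, an inhibitor of RAF kinase signalling, fell from 214 ± 10.8 to 184 ± 2.69 TPM (-0.22 ± 0.05, adjusted p = 0.0432). MAPK3, which encodes an ERK kinase, had a log2 fold change of -0.20 ± 0.06 (adjusted p = 0.0900), and MAP2K1, which encodes a MEK kinase, 0.18 ± 0.05 (adjusted p = 0.0694). Neither passed.

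Among 16 partners and modifiers of the family 2 were higher, 0 lower and 14 not called, against 6.30% higher and 5.54% lower over all tested genes, with a median of 0.09. FRS2, the docking protein of FGF receptors, rose from 21.79 and 21.32 TPM to 30.11 and 29.63 TPM (log2 0.45 ± 0.07, limma adjusted p = 0.0188), and DYRK1A, a kinase that acts on SPRY2, from 33.84 and 32.45 TPM to 42.32 and 43.19 TPM (0.36 ± 0.06, adjusted p = 0.0252). Others in this list did not pass. NF1, which encodes neurofibromin, was listed at 42.33 and 43.48 and at 43.39 and 41.21 TPM (log2 -0.02 ± 0.06, adjusted p = 0.851), and CBL at 31.37 and 31.45 and at 32.39 and 31.72 TPM (0.03 ± 0.06, adjusted p = 0.795). GRB2 had a log2 fold change of 0.11 ± 0.06 (adjusted p = 0.260), PTPN11, a phosphatase of the pathway, 0.08 ± 0.05 (0.316), TESK1, a kinase bound by Sprouty, 0.15 ± 0.12 (0.438) and CAV1, caveolin, 0.22 ± 0.11 (0.230).

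Of 8 other brakes on RAS, NF1 among them, 0 were called by limma. An unadjusted p under 0.05 was reached by 3 of the 8, and by 31.3% of all tested genes. They were LZTR1, an adaptor in the breakdown of RIT1, with a log2 fold change of -0.27 ± 0.08 (adjusted p = 0.0723), RASA3 with -0.44 ± 0.15 (0.108) and RASAL2 with -0.25 ± 0.09 (0.117).

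The last list holds other transcripts raised by ERK or feeding back on it. Of 18 such genes outside the family 17 were tested, with 8 higher, 0 lower and 9 not called, against 6.30% higher over all tested genes, and the median log2 fold change was 0.51. ETV4 reached the minimum only through the RNase H1-labelled pair, and without it 7 of 16 were higher and the median was 0.41. The list was chosen with earlier results of these data known, and its difference from other genes was not tested. ETV5, an ETS factor, rose by 2.28 ± 0.14, EGR1 by 1.58 ± 0.11, ETV4 by 1.52 ± 0.20, FOSL1 by 1.40 ± 0.13 and the ERK phosphatase DUSP5 by 1.02 ± 0.09 on the log2 scale (limma adjusted p = 0.00341, 0.00498, 0.0141, 0.00747 and 0.00714). DUSP4, at 1.48 and 1.42 and then 3.01 and 2.57 TPM, did not pass (log2 0.63 ± 0.17, adjusted p = 0.0687), and DUSP6, at 0.39 and 0.43 and then 1.34 and 1.08 TPM, was below the minimum. FLRT3 and IL17RD, which modulate FGF signalling, were not called. FLRT3 was listed at 11.3 and 11.1 and at 8.51 and 8.1 TPM (log2 -0.39 ± 0.10, adjusted p = 0.0514), and IL17RD at 6.54 and 6.42 and at 6.17 and 6 TPM (-0.08 ± 0.11, adjusted p = 0.674).

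**Figure D5:**
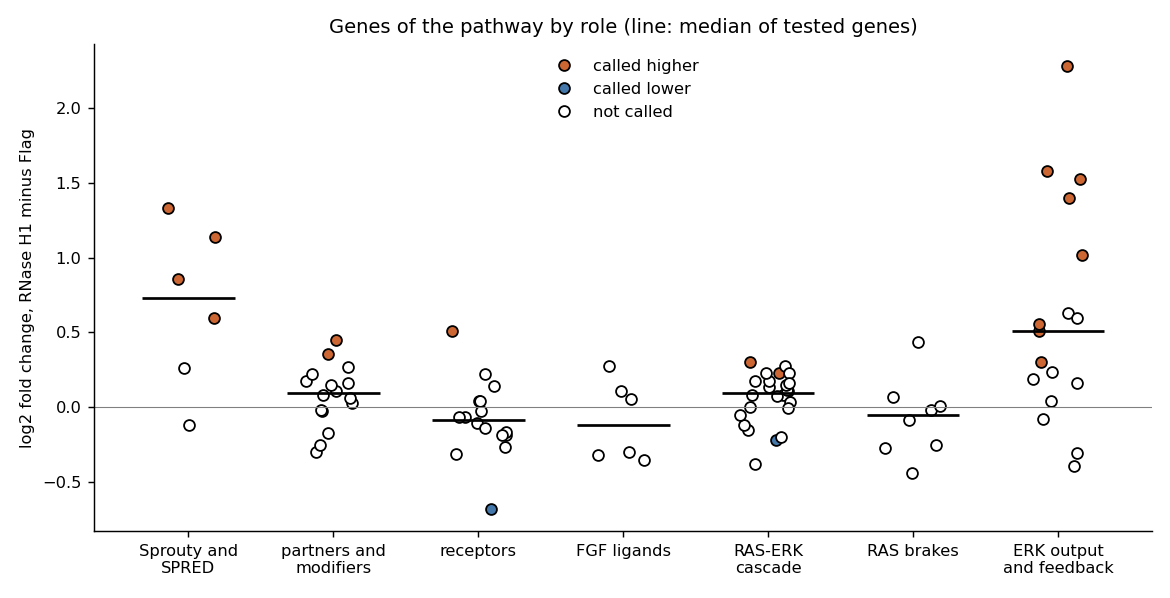
Log2 fold change (RNase H1 minus Flag) of every tested gene in 7 lists by role, orange where called higher, blue where called lower and open where not called, with a line at each list's median. The medians were 0.73 for the Sprouty and SPRED genes, 0.51 for ERK output and feedback genes and -0.12 to 0.10 for the other 5 lists. SPRY4, ETV4 and the FGF ligand FGF18 reached the minimum only through the RNase H1-labelled pair. Without SPRY4 and ETV4 the medians of their lists were 0.59 and 0.41, and the median without FGF18 was not computed. Differences between lists were not tested. EPHA2 and genes of the cascade stand in more than 1 list.

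For each called member the 3 nearest profiles were found among tested genes with a symbol, leaving out rows named only by an Ensembl identifier. Distance was Euclidean, between log2(TPM + 1) values over the 4 libraries, each gene centred on its own mean. With 4 libraries such a profile holds little beyond the difference between groups. Nearest to SPRY2 were ISG15 (distance 0.07), H2AC17 (0.10) and BMPER (0.17). Nearest to SPRY4 were FOSL1 (0.10), SNAI1 (0.14) and SGK1 (0.14). SPRED1 was nearest to APOE (0.04), NXF1 (0.06) and VASN (0.06), of which VASN was not called, and SPRED2 to LINC02804 (0.05), H2BC4 (0.06) and CLU (0.08). H2AC17 and H2BC4 are histone genes with near-identical copies, and their values are uncertain.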

How the data were processed

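RNA of HEK293T cells was sequenced in 4 libraries, 2 per group. The authors deposited 1 table of TPM with a column per library, each summing to 998901 to 998955. Per the submitters' processing notes STAR and hg38 were used, without versions; the quantification program, annotation and strand setting were not stated. Per the labels' protocols, RNA was extracted with TRIzol and a VAHTS mRNA-seq V3 kit was used. TPM keeps no depth. Genes averaging 1 TPM or more were compared as log2(TPM + 1) with limma 3.58.1 in R 4.3.3 (intensity trend, two-sided), p adjusted by Benjamini-Hochberg over all 15651 tested genes. The procedure was tested on simulated data. With 2 libraries a group an exact permutation test cannot go below p = 0.333 and was not used.

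The members and lists were chosen with earlier results of these data known. Named genes were the 7 members, RNASEH1 and the genes of each list called at a mean of at least 5 TPM (up to 5, by p). Genes bearing directly on the family were named too, as were the 3 nearest profiles with a symbol per called member. Neighbouring genes, and list members not called, were named after their values were seen. Alternatives tried were adding 0.1 or 5 TPM before logs, a minimum of 5 TPM or none, quantile and median-of-ratios scaling, no trend, robust moderation, the replicate number as a block, leaving out each library and, added later, GC correction (a spline with 4 degrees of freedom). A transcript GC value was available for 97.9% of tested genes and all 7 members. Figures were drawn with matplotlib 3.10.9. Some genes of the lists are counted but not reported by name here.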

Additional observations from a re-analysis of the deposited data

How the results depend on the processing

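Over all tested genes 1853 were called (limma), 0 with no filter on low values, 1 with no intensity trend and 0 to 15 with 1 library left out, against 5655, 4337 and 3367 to 4035 genes at an unadjusted p under 0.05. Members called higher were 4 as reported and 0 in each of those 6 fits (no filter 0, no intensity trend 0, leaving out a library 0 to 0). With a minimum mean of 5 TPM SPRY4 and SPRED3 were not tested and 3 members were called, and after GC correction 3. In the other 6 alternatives 4 were called, among them the fit with the replicate block, with 2442 calls over all genes. The replicate numbers share only a number: deviations of replicate 1 from the group means correlated at 0.0307 between groups. No member was called lower and none changed direction in the alternatives run. The lists of ERK output genes (8 higher as reported), the RAS-ERK cascade (2 higher) and partners (2 higher) ranged from 0 to 9, 0 to 3 and 0 to 2 higher. Receptors ranged from 0 to 1 in each direction (1 as reported). RAS brakes and ERK output genes ranged from 0 to 1 lower (0 as reported). The ERK output list had 1 gene called lower in 5 of the 14 alternatives, and the RAS brakes 1 in 2 of the 14. The cascade had 0 called higher after GC correction and 1 under quantile normalization, and among the pathway genes called as reported only ETV5 was called in any of those 6 fits, without Flag replicate 2 (adjusted p = 0.0451). Groups of 2 libraries allow no check for outlying libraries.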
